A study of Mus musculus with 12 samples.

Results

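CMT-93 cells are an epithelial line from the mouse rectum, and the comparison described here is the response of PTSO-treated CMT-93 cells to antigens of Trichuris muris, the mouse whipworm. It sets 3 libraries of cells given PTSO and then antigens (PTSO + T. muris) against 3 libraries of cells given PTSO alone. These 6 libraries were chosen by their treatment label out of 12 in the series. The other 6 are cells given antigens without PTSO (T. muris) and cells given neither PTSO nor antigens (control). PTSO was added at 20 µM, or its vehicle in the groups without it, 30 minutes ahead of antigens at 100 µg/mL, and RNA was taken after 6 hours. All libraries come from a single cell line, and no label states that replicates were grown separately, so a p-value here reflects the variation among these libraries, which may be technical. LPS appears in the title of the series, but the treatment labels, which were followed here, give T. muris.

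Trichuris muris burrows into the epithelium of the caecum and colon, where epithelial cells are the first to meet its products. Such cells sense microbial and parasite material through Toll-like and NOD receptors, signal through NF-kB, and release chemokines and alarmins such as IL-33. PTSO (propyl propane thiosulfonate) is an organosulfur compound of Allium plants that reacts with thiols, and thiol-reactive compounds are known to engage NRF2, the regulator of antioxidant genes. The comparison asks what antigens changed in cells to which PTSO had been added first.

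Total counts were 19.6 to 26.1 M in the PTSO + T. muris libraries and 23 to 30.3 M in the PTSO libraries. The mitochondrial share was 1.16% to 1.38% with both treatments and 0.897% to 1.35% with PTSO. Keratin, Epcam and Cdh1 transcripts dominated the 9 epithelial markers, whose summed level was 8401 to 8805 CPM (counts scaled to library size) in PTSO + T. muris libraries and 8155 to 8527 CPM in PTSO libraries. The intestinal transcription factor gene Cdx1 had 0 counts in all 6 libraries, and Vil1 and Cdx2 were low. Among these markers the label intestinal therefore rests on Lgals4, since the keratins mark epithelium in general. Summed leukocyte markers were 0.651 to 0.897 CPM with both treatments and 0.230 to 0.731 CPM with PTSO. Summed fibroblast markers were 2.301 to 3.565 CPM and 3.089 to 4.461 CPM in the same order. Summed endothelial markers were 2.489 to 3.514 CPM and 3.446 to 3.977 CPM. Of the fibroblast markers, Col3a1 and Dcn had 0 counts, while Col1a1 had 133 counts with both treatments and 199 with PTSO. Principal components did not separate the treatments, and PTSO library 2 lay apart at 34.5 on the component with 23% of the variance, with the other 5 libraries between -13.6 and -0.145.

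Few genes were called between PTSO + T. muris and PTSO libraries, most of them with small differences. A gene that was not called is not shown to be unchanged. Of 14625 genes tested, 34 were called (0.232%), 7 higher (0.0479%) and 27 lower (0.185%) with PTSO + T. muris. A gene was called at a Benjamini-Hochberg adjusted p under 0.05 in edgeR's quasi-likelihood test on these 6 libraries. The largest falls among annotated genes were in the calcium pump gene Atp2b4 and the ferroxidase gene Cp, and the glycolytic enzyme genes Hk1, Hk2 and Pfkp and the laminin gene Lama5 also fell. Genes that rose included Txnip, Aldh3a1, Ube2c and Hmgb2. The median size of a called fall was 0.25 on the log2 scale and none reached 1, while the median called rise was 0.41 and 2 of the 7 rises were above 1, Tmem150a and an unannotated locus, both at low levels. In bulk RNA, fewer cells of a type and less RNA per cell cannot be told apart.

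These calls rest on the spread of the 6 libraries and on how it was estimated. A fit that shared its spread with the other 6 libraries called 0 genes, with 932 at an unadjusted p under 0.05, and DESeq2 called 134. Counts without PTSO + T. muris libraries 1, 2 and 3 in turn were 13, 15 and 38, and without PTSO libraries 1, 2 and 3 they were 29, 37 and 15. In all 6 of these fits 7 genes kept the call, and they include Atp2b4, Cp, Slc4a4, 4930402H24Rik, Rps2-ps13 and Tmem150a. Among the other falls described, Nfat5 kept it in 5 of 6 fits, Pfkp in 4, Lgals3, Ddit4 and Sptbn1 in 3, Ubn2, Clmn, Thbs1 and Pkd1 in 2, Tet2, Lrp2, Lama5, Vldlr, Hk2, Notch2 and Nrp2 in 1, and Akap13 and Hk1 in 0. The groups did not overlap in any of the 34 called genes. The same held for 7.92% of all genes tested in the higher direction and 7.7% in the lower, 15.6% in all.

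**Figure D1:**
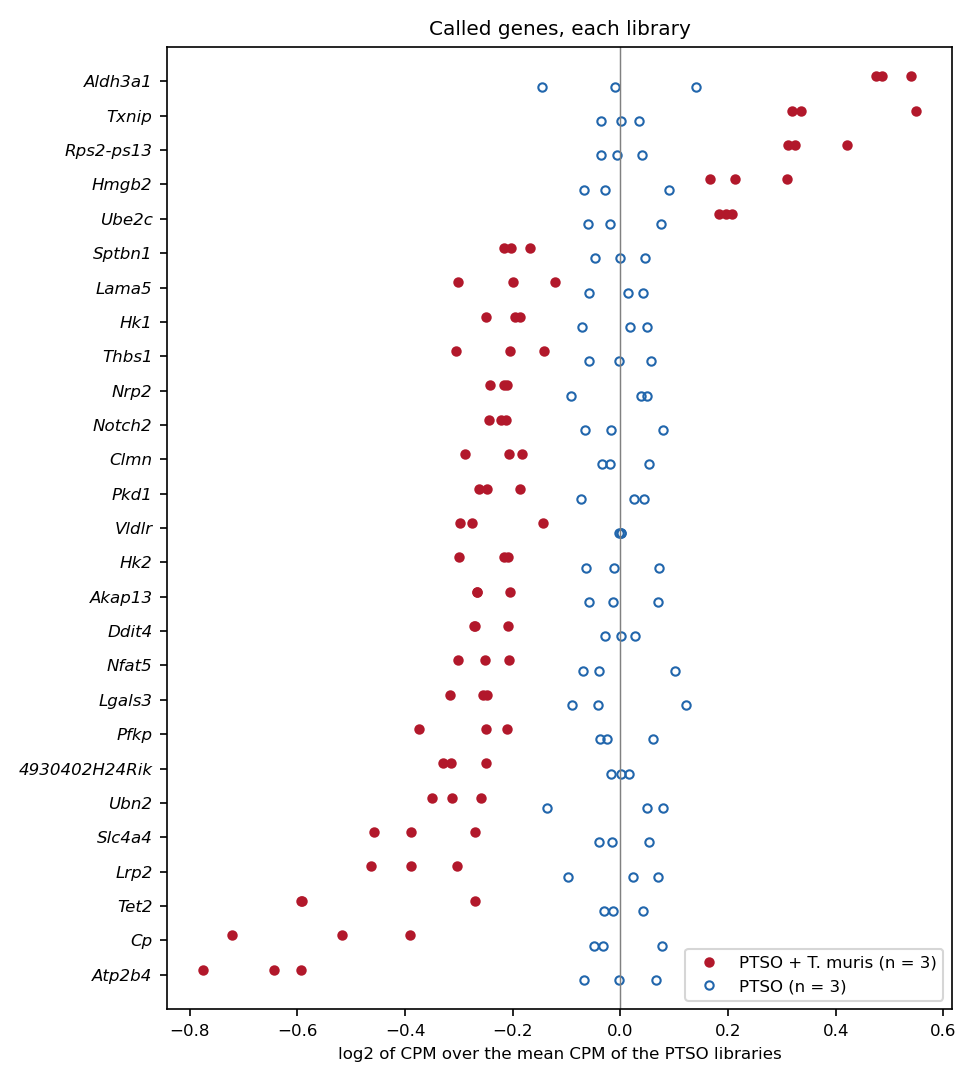
Level in each library of the called genes named in the text, as the log2 of CPM over the mean CPM of the 3 PTSO libraries (x axis, genes down the page, Tmem150a left out for its scale). Filled points are the 3 PTSO + T. muris libraries and open points the 3 PTSO libraries, and in no gene do the groups overlap.

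Atp2b4, Cp and Slc4a4 were among the falls with the smallest adjusted p. Atp2b4 (ENSMUSG00000026463), a plasma membrane pump that exports calcium, had 14.3, 16.2 and 15.6 CPM in PTSO + T. muris libraries, against 25.6, 24.4 and 23.3 CPM in PTSO libraries. Cp (ENSMUSG00000003617), the copper-carrying ferroxidase ceruloplasmin, had 50.7, 58.4 and 63.8 CPM with both treatments, against 88.2, 80.9 and 81.8 CPM with PTSO. Slc4a4 (ENSMUSG00000060961), a sodium bicarbonate cotransporter, had 64.8, 68.0 and 73.8 CPM in PTSO + T. muris libraries, against 86.7, 88.2 and 92.4 CPM in PTSO libraries. Every antigen library of these 3 genes lay below every PTSO library. By edgeR's quasi-likelihood test the log2 fold changes were -0.67 ± 0.092 (SE) for Atp2b4 (adjusted p = 0.00112), -0.54 ± 0.068 for Cp (adjusted p = 0.00112) and -0.37 ± 0.054 for Slc4a4 (adjusted p = 0.00155). As a percentage, Atp2b4 fell by 37.1% and Cp by 31.2%.

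Cp was the one called member of 9 tested iron and metal response genes. Called members of this and later lists are to be read beside the 0.232% of all genes called. Counts of members above or below 0 are to be read beside the 51.5% of all genes tested that were above 0. The ferritin subunit genes, which store the iron that ferroxidases handle, moved the other way without passing the test. Fth1 averaged 904 ± 52.5 CPM with both treatments and 809 ± 13.3 CPM with PTSO (SD, n = 3 each), with adjusted p = 0.084 by edgeR's quasi-likelihood test. Ftl1 averaged 648 ± 23.6 CPM with both treatments and 586 ± 16.0 CPM with PTSO (adjusted p = 0.122, edgeR). DESeq2 called both as higher, with adjusted p = 0.0151 for Fth1 and 0.0214 for Ftl1. The metallothionein gene Mt1, whose product binds zinc and copper, averaged 169 ± 18.3 CPM with both treatments and 207 ± 18.7 CPM with PTSO (adjusted p = 0.430, edgeR). The transferrin receptor gene Tfrc differed by 0.01 on the log2 scale.

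Glycolytic enzymes were the list with the most called members. Hk1 and Hk2, the hexokinases that phosphorylate glucose on entry, and Pfkp, a phosphofructokinase of the committed step, were called lower. They are 3 of 23 tested genes of glycolysis and HIF targets, beside 0.232% of all genes called. Pfkp (ENSMUSG00000021196) had 106, 119 and 116 CPM in PTSO + T. muris libraries, against 143, 134 and 135 CPM in PTSO libraries. Hk2 (ENSMUSG00000000628) had 130.5, 131 and 123 CPM with both treatments, against 145, 150.4 and 159 CPM with PTSO. Hk1 (ENSMUSG00000037012) had 125, 129.7 and 131 CPM with both treatments, against 150.4, 154 and 141 CPM with PTSO. The antigen libraries lay below the PTSO libraries in all 3 genes. Their log2 fold changes were -0.28 ± 0.049 (adjusted p = 0.0126), -0.24 ± 0.047 (adjusted p = 0.0224) and -0.21 ± 0.045 (adjusted p = 0.0498) in the order given (SE, edgeR's quasi-likelihood test).

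Of the 23 members, 21 were below 0 and the median log2 fold change was -0.10, beside 0.00 over all genes tested. At an unadjusted p under 0.05, 15 members were lower, a share to be read beside 5.46% of all genes, and 0 were higher. The median stayed between -0.13 and -0.09 when single libraries were left out. Members that did not pass the test covered later steps of the pathway and its transporters. The glucose transporter gene Slc2a1 averaged 318 ± 8.95 CPM with both treatments and 344 ± 9.21 CPM with PTSO (adjusted p = 0.240, edgeR), and Pgk1, phosphoglycerate kinase, 1204 ± 29.4 CPM and 1290 ± 22.9 CPM (adjusted p = 0.252, edgeR). Ldha, the lactate dehydrogenase subunit, averaged 2003 ± 51.3 CPM with both treatments and 2114 ± 86.2 CPM with PTSO (adjusted p = 0.438, edgeR). Gapdh, at 127, 24.1 and 20.0 CPM with both treatments and 154, 202 and 280.1 CPM with PTSO, has many processed copies in the genome that could share its reads, and its values are uncertain. The HIF targets Adm and Ndrg1 had log2 fold changes of 0.03 and -0.01.

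Ddit4, an inhibitor of mTORC1 that is induced by hypoxia and by ATF4, and Vldlr, a receptor for very low density lipoprotein, were the called members of the 24 ATF4 integrated stress response genes. Ddit4 (ENSMUSG00000020108) had 117, 118 and 123 CPM in PTSO + T. muris libraries, against 142, 139 and 145 CPM in PTSO libraries. Vldlr (ENSMUSG00000024924) had 122, 124 and 136 CPM with both treatments, against 149.9 ± 0.185 CPM (SD, n = 3) with PTSO. Neither gene's groups overlapped, and log2 fold changes were -0.25 ± 0.044 for Ddit4 (adjusted p = 0.012) and -0.24 ± 0.047 for Vldlr (adjusted p = 0.0224, SE, edgeR). The list as a whole did not follow them: 16 of 24 members were above 0 and its median was 0.03. The serine synthesis genes Psat1 and Phgdh, both ATF4 targets, had log2 fold changes of 0.12 and 0.12, with adjusted p of 0.346 and 0.405 (edgeR).

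Promoters of Hk2 and Ddit4 are printed because both genes are known HIF targets and both fell. They are the 250 bases before the annotated start, 5′ to 3′ on the gene's strand, from RefSeq on GRCm38.p6. The range is chr6:82774455-82774704 for Hk2 and chr10:59951771-59952020 for Ddit4, both on the minus strand. Capitals mark ACGTG, a form of the core of the HIF binding site, searched on both strands (CACGT on the other). Other forms of the core were not searched and are not marked.
Hk2: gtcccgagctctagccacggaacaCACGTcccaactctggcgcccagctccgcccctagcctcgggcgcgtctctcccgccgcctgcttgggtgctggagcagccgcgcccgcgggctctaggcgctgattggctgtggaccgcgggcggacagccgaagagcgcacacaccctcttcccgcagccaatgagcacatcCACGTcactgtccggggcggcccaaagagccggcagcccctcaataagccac
Ddit4: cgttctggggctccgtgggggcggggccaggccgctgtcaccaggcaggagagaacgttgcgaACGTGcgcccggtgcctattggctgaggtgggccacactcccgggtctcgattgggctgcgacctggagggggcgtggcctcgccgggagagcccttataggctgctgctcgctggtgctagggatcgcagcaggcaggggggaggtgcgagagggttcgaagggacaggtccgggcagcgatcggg
The matches start 226 and 52 bases before the start of Hk2 and 187 bases before that of Ddit4. Of the 25 called genes with a promoter in the table, 4 held ACGTG (Tet2, Ddit4, Hk2 and Tmem150a), as did 16.6% of all 32851 promoters. A match is a run of letters and was not tested as a binding site.

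**Figure D2:**
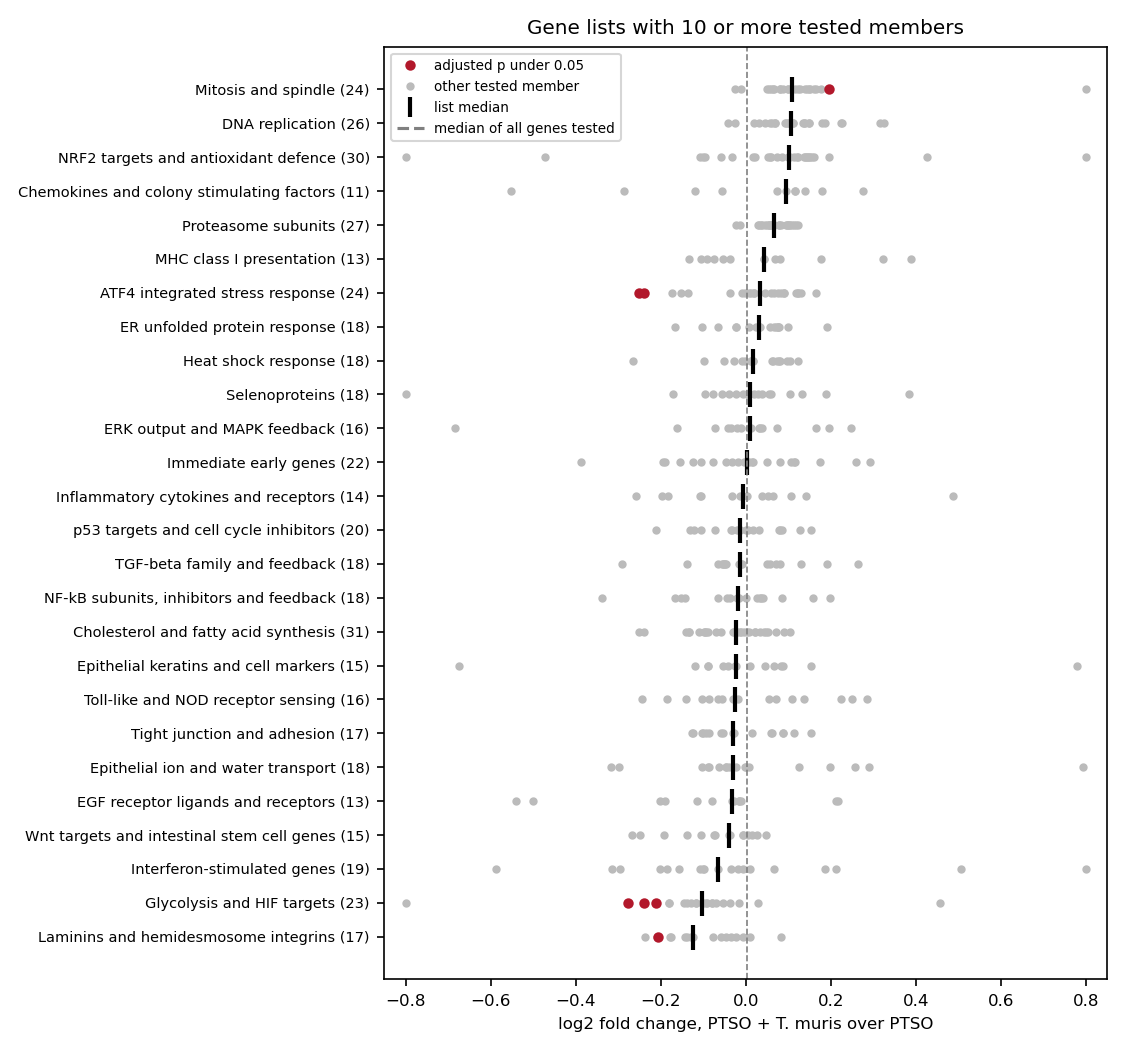
Log2 fold change of PTSO + T. muris over PTSO (x axis) for each tested member of the gene lists with 10 or more tested members (numbers in brackets). Red points passed the test, black bars are list medians, the dashed line is the median of all genes, and values beyond 0.8 in size are drawn at 0.8. Glycolysis and laminins have the lowest medians, and mitosis, DNA replication and NRF2 targets the highest.

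The other called falls include a laminin chain, a lectin, surface receptors and a spectrin. Lama5 (ENSMUSG00000015647), the laminin alpha 5 chain of the epithelial basement membrane, had 1045, 1185 and 1123 CPM in PTSO + T. muris libraries, against 1327, 1302 and 1237 CPM in PTSO libraries. Its groups did not overlap, and it fell by 0.21 ± 0.042 on the log2 scale (SE, adjusted p = 0.0428, edgeR). It was the 1 called gene of 17 laminins and hemidesmosome integrins, of which 15 were below 0 with a median of -0.12. Lamc1, the laminin gamma 1 chain, averaged 50.6 ± 1.21 CPM with both treatments and 59.7 ± 3.64 CPM with PTSO (adjusted p = 0.123, edgeR). Dst, which links hemidesmosomes to intermediate filaments, averaged 249 ± 8.04 CPM with both treatments and 288 ± 24.5 CPM with PTSO (adjusted p = 0.118, edgeR). The integrin genes Itgb1 and Itga3 had log2 fold changes of -0.01 and 0.01.

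Lgals3 (ENSMUSG00000050335) encodes galectin-3, a lectin that binds galactose-containing glycans. It had 143, 137 and 144 CPM with both treatments, against 186, 160.5 and 166 CPM with PTSO, and fell by 0.27 ± 0.050 on the log2 scale (SE, adjusted p = 0.0146, edgeR). Lrp2, the endocytic receptor megalin, averaged 26.7 ± 1.48 CPM with both treatments and 34.9 ± 2.07 CPM with PTSO (log2 fold change -0.38, adjusted p = 0.0428, edgeR). The groups did not overlap in either gene. Akap13, an A-kinase anchoring protein that also activates RhoA, fell by 0.25 on the log2 scale (adjusted p = 0.0498, edgeR).
Further called falls, named after their values were seen because they fell outside the rule on size, were in the spectrin Sptbn1, the actin-binding Clmn, the matricellular Thbs1, the receptors Notch2 and Nrp2 and the polycystin Pkd1. Their log2 fold changes ranged from -0.23 for Pkd1 to -0.20 for Sptbn1. All 6 lost the call with an offset for transcript length, with -0.10 for Pkd1 (adjusted p = 0.560), -0.12 for Clmn (0.509), -0.12 for Sptbn1 (0.225), -0.13 for Notch2 (0.370), -0.18 for Nrp2 (0.174) and -0.19 for Thbs1 (0.0978, edgeR). The most abundant, Thbs1, averaged 1434 ± 80.7 CPM with both treatments and 1665 ± 66.5 CPM with PTSO.

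Products of 3 further genes that fell act in the nucleus. Tet2 (ENSMUSG00000040943), which oxidises 5-methylcytosine, had 14.7, 18.4 and 14.7 CPM in PTSO + T. muris libraries, against 22.8, 21.7 and 22.0 CPM in PTSO libraries. Nfat5 (ENSMUSG00000003847), the transcription factor of the response to high tonicity, had 403, 416 and 389 CPM with both treatments, against 457, 467 and 515 CPM with PTSO. Ubn2 (ENSMUSG00000038538), of the HIRA histone chaperone complex, had 83.7, 86.8 and 81.5 CPM with both treatments, against 94.5, 109.7 and 107.5 CPM with PTSO. No antigen library reached the lowest PTSO library in these genes. Log2 fold changes were -0.47 ± 0.100 for Tet2 (adjusted p = 0.0428), -0.25 ± 0.043 for Nfat5 (adjusted p = 0.012) and -0.31 ± 0.055 for Ubn2 (adjusted p = 0.0126, SE, edgeR). 4930402H24Rik, a gene without an assigned role here, averaged 117.5 ± 3.48 CPM with both treatments and 144 ± 1.71 CPM with PTSO (adjusted p = 0.00155, edgeR).

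Many of the genes that fell have long transcripts. The longest annotated transcript had a median of 8894 bases among called falls, 1960 bases among called rises and 3047 bases among all genes tested. Of the 27 called falls, 18 were among the 10% of genes with the longest transcripts, of at least 6445 bases. These longest genes had a median log2 fold change of -0.07, and their median level relative to each gene's mean was -0.02 to -0.05 in the 3 PTSO + T. muris libraries and 0.01 to 0.06 in the 3 PTSO libraries. Across genes, fold change and length had a Spearman rho of -0.17, with n of 14236 genes that share the same 6 libraries. A fit with an offset for transcript length, added after seeing the data, called 16 genes (0.109%), 5 higher (0.0342%) and 11 lower (0.0752%), and 13 of them were among the 34. Of these 13, 4 are unannotated loci with no length, which the offset could not correct, so that 9 of the 30 called genes with a length kept the call.

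Atp2b4, Cp, Slc4a4, Lgals3, Ddit4, 4930402H24Rik, Txnip, Rps2-ps13 and Tmem150a kept the call with the length offset. With it, Lama5 had a log2 fold change of -0.10 (adjusted p = 0.692), Akap13 -0.13 (adjusted p = 0.487), Nfat5 -0.13 (adjusted p = 0.209), Ubn2 -0.17 (adjusted p = 0.237), Lrp2 -0.24 (adjusted p = 0.302), Vldlr -0.18 (adjusted p = 0.209) and Tet2 -0.40 (adjusted p = 0.151, edgeR). The laminin list had a median of -0.05 with the offset. The hexokinases missed the threshold with folds near those without the offset, at -0.21 for Hk1 (adjusted p = 0.0572) and -0.21 for Hk2 (adjusted p = 0.0572), and Pfkp was at -0.21 (adjusted p = 0.151, edgeR), while the median of their list was -0.13. The called rises Aldh3a1, at 0.47 (adjusted p = 0.0572), Hmgb2, at 0.21 (adjusted p = 0.118), and Ube2c, at 0.16 (adjusted p = 0.156, edgeR), also missed the threshold.

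**Figure D3:**
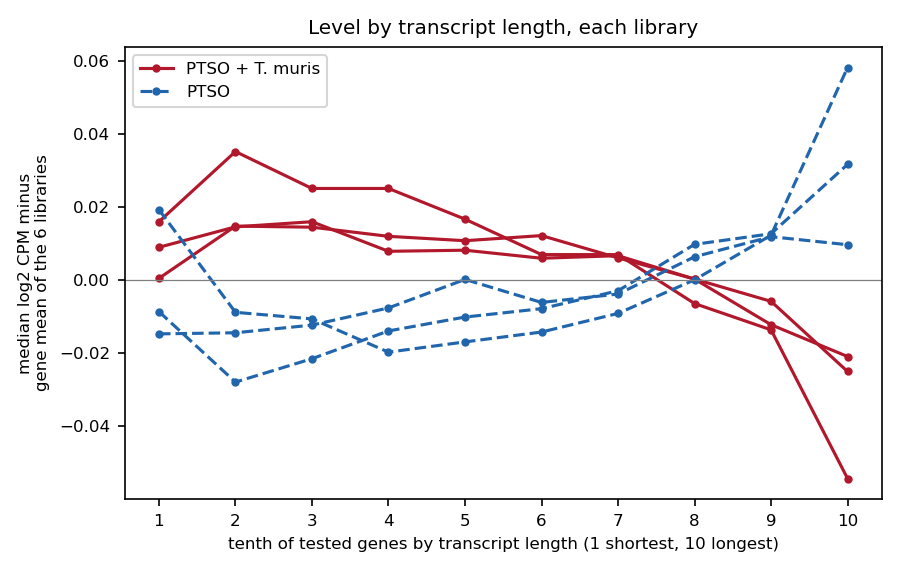
Median of log2 CPM minus each gene's mean over the 6 libraries (y axis) in 10 groups of equal size of the tested genes by longest annotated transcript (x axis, shortest to longest), 1 line per library. In the group with the longest transcripts the 3 PTSO + T. muris lines lie below 0 and the 3 PTSO lines above it.

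Of the genes that rose, Txnip (ENSMUSG00000038393) encodes an arrestin-like protein that binds thioredoxin and restrains glucose uptake. It had 54.9, 46.8 and 47.4 CPM in PTSO + T. muris libraries, against 38.5, 37.6 and 36.6 CPM in PTSO libraries. Aldh3a1 (ENSMUSG00000019102), an aldehyde dehydrogenase and target of the aryl hydrocarbon receptor, had 20.6, 21.5 and 20.7 CPM with both treatments, against 14.7, 13.4 and 16.3 CPM with PTSO. Both genes were higher in each antigen library than in any PTSO library. Log2 fold changes were 0.41 ± 0.073 for Txnip (adjusted p = 0.0126) and 0.50 ± 0.098 for Aldh3a1 (adjusted p = 0.0224, SE, edgeR's quasi-likelihood test). Aldh3a1 kept the call in 1 of the 6 fits that each left out a library, with adjusted p up to 0.247, and Txnip in 4 of 6, with adjusted p up to 0.134 (edgeR).

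Aldh3a1 was the called member of 7 tested aryl hydrocarbon receptor pathway genes. Cyp1a1, the classical target of the receptor, averaged 39.9 ± 1.66 CPM with both treatments and 33.5 ± 1.79 CPM with PTSO, with no overlap (log2 fold change 0.25, adjusted p = 0.179, edgeR). Cyp1b1, another cytochrome P450 target, averaged 530.1 ± 19.1 CPM with both treatments and 500.5 ± 8.13 CPM with PTSO (adjusted p = 0.430, edgeR). The genes of the receptor and its partner had the opposite sign, at log2 fold changes of -0.16 for Ahr and -0.16 for Arnt (adjusted p = 0.214 and 0.257, edgeR).

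Ube2c (ENSMUSG00000001403) encodes the ubiquitin-conjugating enzyme of the anaphase-promoting complex, and Hmgb2 (ENSMUSG00000054717) a chromatin protein abundant in dividing cells. Ube2c had 249.8, 246 and 248 CPM in PTSO + T. muris libraries, against 207.5, 213 and 228 CPM in PTSO libraries. Hmgb2 had 216, 202 and 196 CPM with both treatments, against 166, 186 and 171 CPM with PTSO. Neither gene's groups overlapped, and log2 fold changes were 0.20 ± 0.042 for Ube2c (adjusted p = 0.0428) and 0.23 ± 0.047 for Hmgb2 (adjusted p = 0.0406, SE, edgeR). Ube2c kept the call in 1 and Hmgb2 in 2 of the 6 fits that each left out a library.

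Their promoters are printed because both genes belong to the cell division programme and rose together. The 250 bases before the start, 5′ to 3′ from RefSeq on GRCm38.p6, are chr2:164769679-164769928 for Ube2c and chr8:57511593-57511842 for Hmgb2, both on the plus strand. Capitals mark TTTGAA, the letters of the cell cycle genes homology region that DREAM and MMB complexes bind. Both strands were searched (TTCAAA on the other).
Ube2c: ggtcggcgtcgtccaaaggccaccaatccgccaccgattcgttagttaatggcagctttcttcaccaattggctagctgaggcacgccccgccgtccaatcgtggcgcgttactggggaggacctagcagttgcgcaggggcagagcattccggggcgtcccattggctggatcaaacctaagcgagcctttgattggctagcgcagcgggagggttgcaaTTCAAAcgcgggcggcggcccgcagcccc
Hmgb2: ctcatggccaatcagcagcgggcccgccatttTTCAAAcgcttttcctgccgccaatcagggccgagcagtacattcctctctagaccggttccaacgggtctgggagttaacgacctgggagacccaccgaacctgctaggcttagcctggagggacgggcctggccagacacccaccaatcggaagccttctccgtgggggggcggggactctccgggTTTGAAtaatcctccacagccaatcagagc
The matches start 29 bases before the start of Ube2c and 218 and 30 bases before that of Hmgb2. These letters were in 4 of the 25 called genes with a promoter (Hmgb2, Ube2c, Cp and Ubn2) and in 16% of all promoters in the table. Of these genes, Cp and Ubn2 were called lower. A match was not tested as a binding site here either.

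Ube2c was the called gene among 24 mitosis and spindle genes, of which 22 were above 0 with a median log2 fold change of 0.11. At an unadjusted p under 0.05, 11 of the 24 were higher and 0 lower, beside 4.77% and 5.46% of all genes. Cdc20, the activator of the anaphase-promoting complex, averaged 89.1 ± 4.97 CPM with both treatments and 79.8 ± 0.96 CPM with PTSO (adjusted p = 0.214, edgeR). Mki67, the proliferation marker, averaged 255 ± 23.6 CPM and 259.8 ± 25.0 CPM in the same order (adjusted p = 0.962, edgeR). Of 26 DNA replication genes 0 were called and 24 were above 0, with a median of 0.11. Rfc4, a clamp loader subunit, averaged 29.1 ± 1.58 CPM with both treatments and 23.2 ± 2.39 CPM with PTSO, and Ccne1, the cyclin of S phase entry, 19.8 ± 1.73 CPM and 16.0 ± 1.17 CPM (adjusted p = 0.141 and 0.214, edgeR). The median of the mitosis list stayed between 0.07 and 0.14 when single libraries were left out.

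Of 30 tested NRF2 targets and antioxidant genes 0 were called by edgeR, 23 were above 0 and the median was 0.10. Thioredoxin reductase Txnrd1 averaged 274 ± 5.71 CPM with both treatments and 249 ± 10.5 CPM with PTSO (adjusted p = 0.181, edgeR). Gclm, a subunit of the enzyme that makes glutathione's precursor, averaged 136 ± 1.05 CPM with both treatments and 123 ± 5.61 CPM with PTSO (adjusted p = 0.198, edgeR). Neither pair of groups overlapped, beside 15.6% of all genes without overlap. At an unadjusted p under 0.05, 12 members were higher and 2 lower, beside 4.77% and 5.46% of all genes. Proteasome subunits were called in 0 of 27, with 25 above 0 and a median of 0.07. Psmd3, of the regulatory particle, had the smallest p among them, with 196 ± 1.67 CPM with both treatments and 181 ± 2.81 CPM with PTSO (adjusted p = 0.268, edgeR).

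The other called rises among annotated genes carry limits of their own. Rps2-ps13 (ENSMUSG00000081684), a processed pseudogene of the ribosomal protein gene Rps2, had 132, 141 and 131 CPM in PTSO + T. muris libraries, against 108, 105 and 103 CPM in PTSO libraries. The groups did not overlap, and it rose by 0.35 ± 0.046 on the log2 scale (SE, adjusted p = 0.00112, edgeR). Rps2 itself had a log2 fold change of 0.14 (adjusted p = 0.135, edgeR), and reads of gene and pseudogene may be shared, so the value is uncertain.
Tmem150a (ENSMUSG00000055912), a multi-pass membrane protein gene below the level at which genes were named by size, had 73, 56 and 123 counts in PTSO + T. muris libraries, against 9, 13 and 3 counts in PTSO libraries. Summed, this is 3.52 CPM with both treatments (exact 95% Poisson interval 3.10 to 3.99) and 0.305 CPM with PTSO (0.197 to 0.450), intervals that cover counting error only. It rose by 3.61 ± 0.46 on the log2 scale (SE, adjusted p = 0.00118, edgeR). In the groups without PTSO it had 71, 8 and 7 counts with T. muris and 139, 163 and 134 counts in control, so that 1 antigen library stood well above the other 2.

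Antigen sensing and inflammation genes were counted beside the 0.232% of all genes called, at which lists of this size would mostly hold no call. Of the tested members, 0 of 16 Toll-like and NOD receptor sensing genes, 0 of 18 NF-kB subunits, inhibitors and feedback genes, 0 of 11 chemokines and colony stimulating factors, 0 of 14 inflammatory cytokines and receptors, 0 of 5 alarmins and type 2 response genes and 0 of 19 interferon-stimulated genes passed the test. Il33, which encodes the alarmin released by damaged epithelium, had 613, 622 and 647 CPM in PTSO + T. muris libraries, against 670.4, 613 and 649.8 CPM in PTSO libraries. Nfkbia, the inhibitor that NF-kB itself induces, had 30.5, 36.2 and 32.6 CPM with both treatments, against 35.6, 32.4 and 32.3 CPM with PTSO. The neutrophil chemokine gene Cxcl1 had 9.98, 8.85 and 7.74 CPM with both treatments, against 7.97, 8.78 and 6.69 CPM with PTSO. The groups overlapped in all 3 genes, with adjusted p of 0.790 for Il33, 0.973 for Nfkbia and 0.730 for Cxcl1 (edgeR). The 95% interval of the log2 fold change was -0.12 to 0.04 for Il33, -0.18 to 0.15 for Nfkbia and -0.13 to 0.49 for Cxcl1.

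Csf1, the macrophage growth factor, had the smallest p of the chemokine list, with 36.4 ± 1.41 CPM with both treatments and 44.4 ± 4.51 CPM with PTSO. Its log2 fold change was -0.29 (adjusted p = 0.135, edgeR), and DESeq2 called it lower (adjusted p = 0.0386). In the other sensing lists the smallest p belonged to Irak4, the kinase downstream of Toll-like receptors (log2 fold change -0.18, adjusted p = 0.470), to Nfkbib, another NF-kB inhibitor (0.20, adjusted p = 0.375), to the LIF receptor gene Lifr (-0.20, adjusted p = 0.204), to the tuft cell kinase gene Dclk1 (0.15, adjusted p = 0.649) and to the interferon signalling gene Stat2 (-0.20, adjusted p = 0.413, edgeR). Ccl20 was too low to be tested. Areg, an EGF receptor ligand, and Lif, a cytokine of the IL-6 family, had log2 fold changes of -0.02 (adjusted p = 0.974) and 0.05 (adjusted p = 0.868, edgeR).

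The counts for growth factor, junction and mucus lists, again beside 0.232% of all genes, were 0 of 22 immediate early genes, 0 of 16 ERK output genes, 0 of 13 EGF receptor ligands and receptors, 0 of 18 TGF-beta family genes, 0 of 17 tight junction genes and 0 of 5 mucus genes. Fosl2, an AP-1 subunit, was nearest, with 418, 410.4 and 408 CPM in PTSO + T. muris libraries, against 458, 456.5 and 462 CPM in PTSO libraries. Plaur, the urokinase receptor, had 132.5, 128 and 117 CPM with both treatments, against 107.5, 113 and 105 CPM with PTSO. Scd1, the desaturase with the smallest p among 31 cholesterol and fatty acid synthesis genes, had 148, 142 and 146 CPM with both treatments, against 188, 157 and 171 CPM with PTSO. The groups did not overlap in these genes, and their adjusted p was 0.0588 for Fosl2, 0.0651 for Plaur and 0.063 for Scd1 (edgeR). DESeq2 called all 3, with adjusted p of 0.00105 for Fosl2, 0.0178 for Plaur and 0.00593 for Scd1.

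In the remaining lists, beside the same 0.232%, the test called 0 of 13 MHC class I, 18 selenoprotein, 18 heat shock, 18 unfolded protein response, 20 p53, 15 Wnt and stem cell, 18 ion transport, 5 antimicrobial, 15 keratin, 2 leukocyte and 5 fibroblast and endothelial genes. In lists counted before these, the smallest p among ERK output genes belonged to Dusp4, an ERK phosphatase (log2 fold change -0.16, adjusted p = 0.123, edgeR). Among mucus genes it belonged to St3gal4, a sialyltransferase (-0.14, adjusted p = 0.352), and among tight junction genes to Tjp1 (-0.10, adjusted p = 0.346, edgeR). In the remaining lists, the gene with the smallest p was Wfdc2, of the whey acidic protein family, for antimicrobial genes (0.06, adjusted p = 0.680, edgeR). For MHC class I the gene with the smallest p was Psmb10 of the immunoproteasome (0.18, adjusted p = 0.415, edgeR). Likewise it was Gpx2, the intestinal glutathione peroxidase (0.38, adjusted p = 0.182), Hspd1, the mitochondrial chaperonin (0.10, adjusted p = 0.364), Creld2 of the unfolded protein response (0.19, adjusted p = 0.222), Cdkn2a, a cell cycle inhibitor (0.15, adjusted p = 0.214), the Wnt feedback ligase gene Rnf43 (-0.14, adjusted p = 0.214) and Atp1b1, a sodium pump subunit (-0.30, adjusted p = 0.181, edgeR). Krt18, an epithelial keratin, had a log2 fold change of 0.08 (adjusted p = 0.363), Cd68 of the leukocyte list -0.36 (adjusted p = 0.633) and Pdgfra of the fibroblast list -1.25 at under 1 CPM (adjusted p = 0.417, edgeR). Selenow, a small selenoprotein gene, averaged 96.4 ± 3.44 CPM with both treatments and 92.9 ± 4.01 CPM with PTSO (adjusted p = 0.759, edgeR). Hspa1a, the inducible HSP70, had 7.25, 6.47 and 3.87 CPM with both treatments, against 5.05, 9.33 and 2.19 CPM with PTSO, and its reads may be shared with Hspa1b.

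T. muris against control shows the same genes without PTSO, in 6 libraries that the comparison above does not use. Of 14518 genes tested 1 was called (0.00689%), the unassigned gene model Gm18194, which rose by 1.85 on the log2 scale (adjusted p = 8.16e-05, edgeR) and had -0.40 in PTSO-treated cells (adjusted p = 0.891, edgeR). At an unadjusted p under 0.05, 1437 genes were higher (9.9%) and 1664 lower (11.5%). This count depended on control libraries: 4172 genes were called without control library 1, 8 without control library 3, and 42 with control libraries 2 and 3 both left out, where the lone control library is assumed to vary like the T. muris libraries.

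Of the 27 genes called lower with PTSO + T. muris, 26 were also below 0 in T. muris against control (96.3%), and 26 again with control libraries 2 and 3 left out. All genes had the same sign in 63.9% of cases, and in 55.2% without those control libraries. The 10% of genes with the longest transcripts, which hold 18 of the 27 falls, had a median of -0.07 in T. muris against control too. Whether the falls share their sign more often than other genes of equal length was not tested. The called rises had the same sign in 6 of 7 genes, and in 4 of 7 without those libraries. On the scale of all 12 libraries, Cp had 88.1, 87.8 and 87.9 CPM with T. muris, against 108, 137 and 148 CPM in control. Atp2b4 had 19.6, 17.3 and 16.4 CPM with T. muris, against 24.6, 40.6 and 39.2 CPM in control. In both genes control library 1 lay nearest to the antigen libraries. Control library 1 was also the least like the other controls. Its counts differed with a chi-square per gene of 16.3 from control library 2 and 25.3 from control library 3. Control libraries 2 and 3 differed from each other with 7.78. Values against control library 1 alone, here and below, rest on that library, and fold changes without it are not given. The log2 fold changes were -0.58 for Cp (adjusted p = 0.104) and -0.96 for Atp2b4 (adjusted p = 0.108, edgeR), and -0.29 and -0.46 against control library 1 alone.

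Among the other called genes, Txnip had log2 fold changes of 0.49 in T. muris against control and 0.34 against control library 1 alone (adjusted p = 0.104 with all 3, edgeR). Tet2 had -0.71 and -0.47 in these fits, and Hk2 -0.28 and -0.18. Rps2-ps13 changed sign, with 0.33 against all 3 control libraries and -0.02 against control library 1. The list medians without PTSO were -0.25 for glycolysis and HIF targets, 0.26 for mitosis and 0.27 for DNA replication, and -0.11, 0.06 and 0.09 against control library 1 alone.

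**Figure D4:**
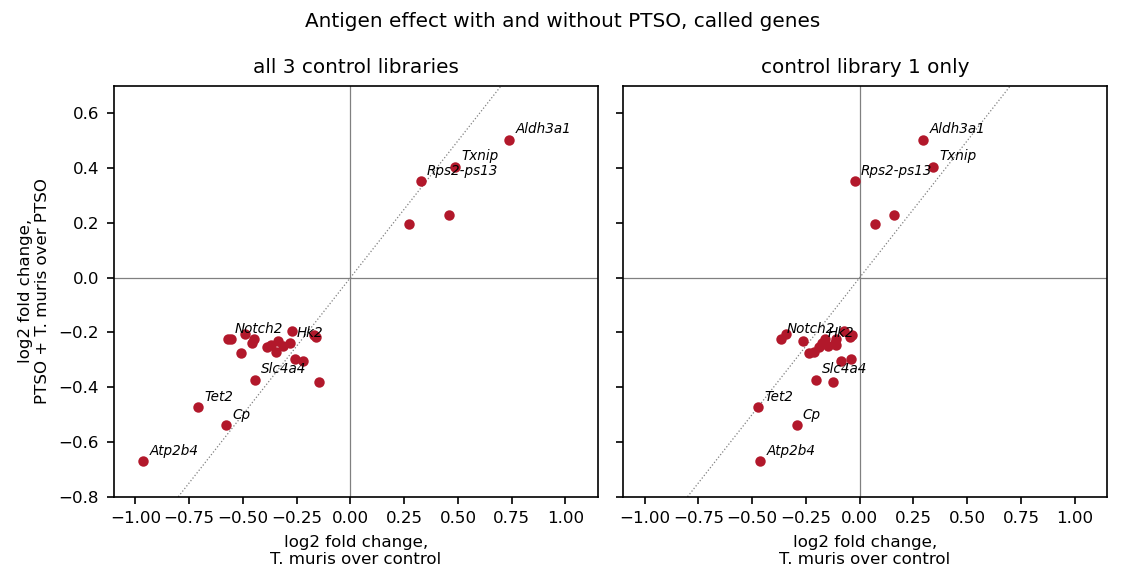
Log2 fold change of PTSO + T. muris over PTSO (y axis) against that of T. muris over control (x axis) for the called genes named in the text other than Tmem150a, with all 3 control libraries (left) and with control library 1 alone (right). Points are genes and the dotted line marks equal values. Genes that fell with antigens in PTSO-treated cells lie below 0 on both axes, and values on the x axis are smaller against control library 1 alone.

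The difference between the antigen effects with and without PTSO was tested in all 12 libraries. Of 15267 genes, 0 were called by edgeR and 4 by DESeq2, and at an unadjusted p under 0.05 there were 593 higher (3.88%) and 588 lower (3.85%). The smallest p belonged to Tmem150a, whose effect with PTSO exceeded that without PTSO by 6.09 ± 0.95 on the log2 scale (SE, adjusted p = 0.609, edgeR). Next were Gpx4-ps2, a pseudogene of glutathione peroxidase 4 (0.39), the predicted gene Gm4204 (-0.35) and the cell cycle inhibitor Cdkn2a (0.36), each with adjusted p = 0.609 (edgeR). Cdkn2a had 106, 115 and 118 CPM with PTSO + T. muris, 103, 98.9 and 103 CPM with PTSO, 98.1, 103.5 and 106.5 CPM with T. muris, and 109, 119 and 127 CPM in control. Of the called genes with an annotation, Lama5 had a difference of 0.28 ± 0.094 and Notch2 of 0.34 ± 0.12, with unadjusted p of 0.00921 and 0.0161 (edgeR). For Cp the difference was 0.03 ± 0.15, for Slc4a4 0.07 ± 0.11 and for Txnip -0.08 ± 0.12 (SE). These differences missed the threshold, which does not show that the effects were equal.

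**Figure D5:**
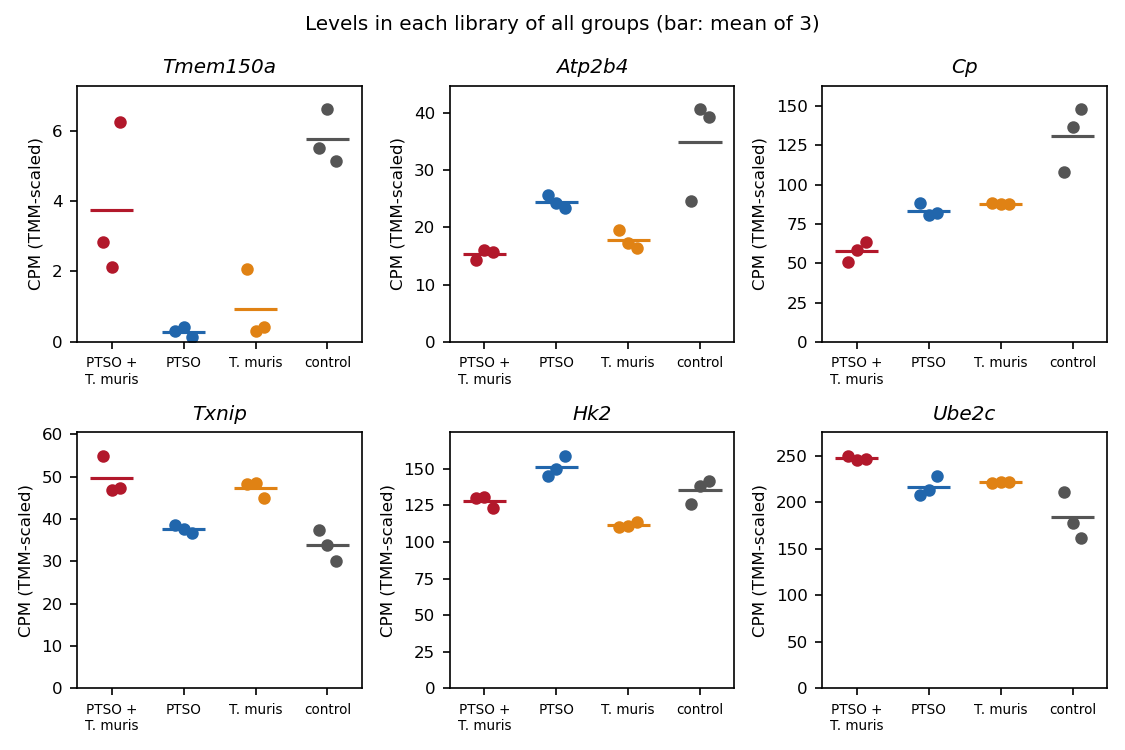
CPM of 6 genes (y axis, scaled over all 12 libraries) in each library of PTSO + T. muris, PTSO, T. muris and control, with the mean of 3 libraries as a bar. Atp2b4, Cp and Hk2 are lower and Txnip and Ube2c higher in each PTSO + T. muris library than in any PTSO library, and Tmem150a is low in PTSO and in 2 of the T. muris libraries.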

How the data were processed

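Raw counts of reads per gene were deposited as a single table covering 12 libraries, 3 in each of 4 groups, and were used unchanged. HISAT, DESeq2 and mm39 are listed in the submitters' processing notes, without versions or roles. How reads were counted, and with which strand setting, is not given in the sources used here. Libraries were grouped by their treatment label.

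The filterByExpr function set the minimum level for testing, which left 14625 genes with 99.91% of the counts. TMM scaling and robust quasi-likelihood F-tests were run in edgeR 4.0.16 on the 6 libraries compared (4 residual degrees of freedom, common dispersion 0.00539), two-sided, with Benjamini-Hochberg adjustment over all genes tested. T. muris against control was fitted in the same way, and the difference between the antigen effects in all 12 libraries. DESeq2 1.42.0 and limma 3.58.1 (voom) served as alternatives, run in R 4.3.3. Plots used matplotlib 3.10.9. CPM values are counts relative to the TMM-scaled library size, and an SE is the log2 fold change over the square root of F.

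Symbols, transcript lengths and promoters came from GRCm38 annotation, where 53620 of 55137 identifiers were found, and no coordinates of it were joined to the counts. Of the called genes, 4 are unannotated loci and are not named, and a few other genes are not reported here. Text names up to 12 called rises and 12 called falls by size without overlap and with mean log2 CPM at or above 1, up to 3 called members of each of 33 gene lists or the member with the smallest p, and 8 fixed genes. The comparison, lists and genes were chosen with earlier results of these data known, and list counts and medians are descriptions. In no group did 2 libraries agree within sampling noise.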

Additional observations from a re-analysis of the deposited data

How the results depend on the processing

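Results of PTSO + T. muris against PTSO kept their direction for all 34 called genes under every alternative in which the gene was tested, but the number of calls moved. Against 34 calls, the fit gave 134 with DESeq2, 170 with no filter on low counts, 16 with the transcript length offset, 9 without robust dispersion and 0 with all 12 libraries in the fit. Leaving out single libraries gave 13 to 38. Genes shared with the 34 were 27 with DESeq2, 34 with no filter, 13 with the length offset and 8 without robust dispersion. The annotated genes not shared with DESeq2 were Atp2b4, Aldh3a1, Tet2, Lrp2 and Tmem150a, to which it gave no adjusted p. The limma-voom fit gave 25, RLE size factors 49, a filter at 1 CPM 37 and an offset for GC content 49. The cause of these shifts was not tested.

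T. muris against control, with 1 call, gave 872 with DESeq2, 1629 with no filter, 969 with all 12 libraries in the fit, 42 with control libraries 2 and 3 left out, and 1 to 4172 with single libraries left out. The antigen effect with PTSO minus antigen effect without PTSO, with 0 calls, gave 4 with DESeq2, 45 with no filter, 1 with control libraries 2 and 3 left out, and 0 to 1279 with single libraries left out. The highest count in both came without control library 1.

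The labels do not say whether same-numbered libraries were paired. No pairing was seen, as deviations of same-numbered libraries correlated at -0.0404, 0.0167 and -0.0052. With 3 libraries per group these values cannot exclude it. With the number as a replicate block, PTSO + T. muris against PTSO gave 16 calls, T. muris against control 399, and the difference between antigen effects 1.

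Uncalled genes near 0 changed sign in PTSO + T. muris against PTSO. With single libraries left out, the log2 fold change ranged from -0.0847 to 0.0394 for Nfkbia, from -0.0829 to 0.0749 for Areg and from -0.2868 to 0.6883 for Hspa1a. The smallest called change was 0.20 in size, and genes at a few CPM, such as Hspa1a and Cxcl1, had wide intervals at this depth.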
